A study of Mus musculus with 10 samples.

Results

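The interferon-induced transmembrane (IFITM) genes Ifitm1, Ifitm2, Ifitm3 and Ifitm6 were followed in mouse blood neutrophils. They were picked by gene name, and all 4 members were found among the 54146 genes of the expression table. Neutrophils carrying CD11b and Ly-6G had been sorted from peripheral blood of BALB/c nu/nu mice, an athymic strain that accepts human tumour cells, 14 days after injection into the kidney. The injected cells were OS5K #1, OS5K #2, OS5K #3 or OSPa, names that belong to OS-RC-2, a line from a human kidney tumour of the clear cell type, and its derivatives; OSPa is taken to be the parent. Sham mice received vehicle. Each of the 5 groups had 2 libraries. Nothing in the labels ties the replicates to different mice. The p-values therefore reflect how far these libraries spread, and that spread may be technical.

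IFITM proteins are small membrane proteins that hinder the fusion of enveloped viruses with the membranes of the cell. IFITM3 acts mainly in endosomes and lysosomes, whereas human IFITM1 is found largely at the cell surface. Interferons raise transcription of several family members through the interferon-stimulated response element (ISRE) in their promoters, and some members are also expressed without interferon.

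In mm10 the 4 members lie close together on chromosome 7, and all are annotated as protein coding. Ifitm2 (ENSMUSG00000060591) spans 140954837 to 140955987 on the minus strand and Ifitm1 (ENSMUSG00000025491) spans 140967221 to 140969825 on the plus strand. Ifitm3 (ENSMUSG00000025492) spans 141009586 to 141010770 and Ifitm6 (ENSMUSG00000059108) spans 141015699 to 141017924, both on the minus strand. The values are per gene and cover all its annotated exons.

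The promoter windows are shown because one member, Ifitm3, varied together with interferon-stimulated genes across the libraries. They come from RefSeq on GRCm38.p6, run 5′ to 3′ on the strand of the gene, and hold 250 bases before the RefSeq start and 30 bases from it onward. Capitals mark matches to GAAA followed, after any 2 bases, by a second GAAA, which is the core of the ISRE; both strands were searched. The windows are chr7:140967826-140968105 (plus strand), chr7:140955932-140956211, chr7:141010715-141010994 and chr7:141016863-141017142 (minus strand).
Ifitm1: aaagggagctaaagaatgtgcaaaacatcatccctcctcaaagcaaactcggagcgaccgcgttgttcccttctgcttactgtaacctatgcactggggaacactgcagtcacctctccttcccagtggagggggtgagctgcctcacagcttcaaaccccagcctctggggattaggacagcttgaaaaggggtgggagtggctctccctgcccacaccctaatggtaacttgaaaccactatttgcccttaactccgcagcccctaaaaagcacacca
Ifitm2: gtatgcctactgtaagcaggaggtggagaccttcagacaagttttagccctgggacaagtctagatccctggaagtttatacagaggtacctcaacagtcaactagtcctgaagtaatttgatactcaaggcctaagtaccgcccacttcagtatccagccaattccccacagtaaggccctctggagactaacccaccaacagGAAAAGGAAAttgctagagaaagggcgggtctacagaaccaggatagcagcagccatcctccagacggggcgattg
Ifitm3: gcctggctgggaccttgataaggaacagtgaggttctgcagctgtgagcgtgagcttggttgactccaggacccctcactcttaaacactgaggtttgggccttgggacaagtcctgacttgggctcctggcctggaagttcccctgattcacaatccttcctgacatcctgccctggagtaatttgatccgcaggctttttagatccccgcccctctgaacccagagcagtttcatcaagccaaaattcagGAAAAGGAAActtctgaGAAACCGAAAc
Ifitm6: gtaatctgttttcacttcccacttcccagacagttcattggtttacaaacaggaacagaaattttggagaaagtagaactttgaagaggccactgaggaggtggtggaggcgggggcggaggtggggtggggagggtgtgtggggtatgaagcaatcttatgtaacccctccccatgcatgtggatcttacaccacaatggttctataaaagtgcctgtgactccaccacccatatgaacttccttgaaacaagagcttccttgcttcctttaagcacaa

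Counting the start as base 1, Ifitm3 held this motif at bases 3 to 12 and again at bases 20 to 29. Ifitm2 held it once, with its first base at -46 and its last at -37. These letters were not in the windows of Ifitm1 and Ifitm6. The ISRE motif was present in 3.44% of all 32851 windows of 300 bases. Counted by gene, it was present in 3.99% of the 27025 genes with a window and in 15 of the 30 type I interferon-stimulated genes that had a window. The RefSeq starts of Ifitm1 and Ifitm6 lie 855 and 1032 bases inside the gene start of the annotation, against 26 bases for Ifitm2 and Ifitm3, so other starts of Ifitm1 and Ifitm6 were not searched. A match describes the letters and is not evidence of binding.

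All 4 members passed the filter of at least 1 RPKM (reads scaled to exon length and to the library total) in at least 2 libraries, which left 8039 genes. By mean RPKM over the 10 libraries, Ifitm2 ranked 20 at 1310, Ifitm3 ranked 49 at 576, Ifitm1 ranked 122 at 305 and Ifitm6 ranked 495 at 73.2. That order of the members held in every library. Together they took between 0.133% and 0.197% of all reads, and both ends of that range were OS5K #2 libraries. Read totals lay between 13765576 and 15514537, and Ifitm6, the member with the fewest reads, had 667 to 1195 per library.

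Ifitm2, the most abundant member, differed least. It had 1185 and 1364 RPKM in OS5K #1, 1124 and 1695 in OS5K #2, 1497 and 1288 in OS5K #3, 1274 and 1250 in OSPa and 1235 and 1187 in sham. The OS5K libraries held both the lowest and the highest value, and OSPa and sham lay inside their range. The mean was 1359 ± 211 RPKM in OS5K (SD, n = 6), 1262 ± 16.5 in OSPa (SD, n = 2) and 1211 ± 34.1 in sham (SD, n = 2).

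Ifitm3, which restricts virus entry from endosomes, had 502 and 467 RPKM in OS5K #1, 479 and 662 in OS5K #2, 609 and 537 in OS5K #3, 497 and 608 in OSPa and 590 and 812 in sham. The highest library was a sham library, but the other sham library lay below 1 library of OS5K #2, 1 of OS5K #3 and 1 of OSPa, so the groups overlapped. The mean was 543 ± 77.6 RPKM in OS5K (SD, n = 6), 552 ± 78.3 in OSPa (SD, n = 2) and 701 ± 157 in sham (SD, n = 2).

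Ifitm1 showed the widest range of the 4, with its highest library 2.10 times its lowest. It had 229 and 376.4 RPKM in OS5K #1, 206 and 304 in OS5K #2, 243 and 257 in OS5K #3, 376.1 and 434 in OSPa and 355 and 270 in sham. The OSPa libraries were high and most OS5K libraries low: both libraries of OS5K #2 and of OS5K #3 lay below both of OSPa, while replicate 2 of OS5K #1 reached the lower OSPa library. The mean was 269 ± 61.9 RPKM in OS5K (SD, n = 6), 405 ± 40.7 in OSPa (SD, n = 2) and 312 ± 59.8 in sham (SD, n = 2).

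Ifitm6, the least abundant member, had 70.2 and 83.7 RPKM in OS5K #1, 50.9 and 85.1 in OS5K #2, 72.1 and 53.9 in OS5K #3, 80.8 and 86.8 in OSPa and 80.6 and 68.4 in sham. OSPa again had the highest mean, but 2 OS5K libraries lay above its lower library. The mean was 69.3 ± 14.4 RPKM in OS5K (SD, n = 6), 83.8 ± 4.28 in OSPa (SD, n = 2) and 74.5 ± 8.65 in sham (SD, n = 2).

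**Figure D1:**
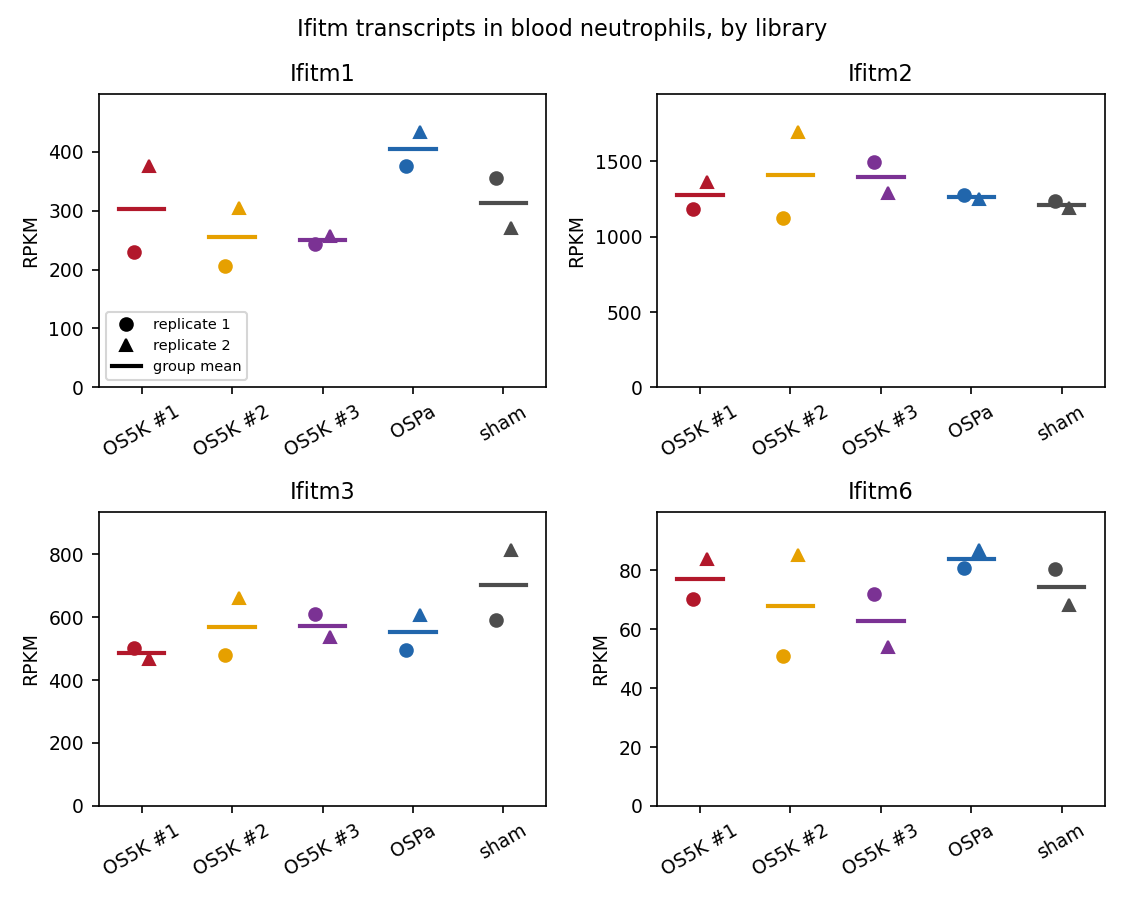
RPKM of each member in the 10 libraries, by group; circles are replicate 1, triangles replicate 2 and bars group means, and each axis starts at 0. The group mean of Ifitm1 is highest in OSPa, with libraries at 376.1 and 434 RPKM, and the single highest Ifitm3 value, 812 RPKM, is a sham library.

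The groups were ordered by mean, and each step between neighbours was set beside the larger SD of the pair. Each SD comes from 2 libraries, so it is a rough measure of spread and the comparison is not a test. For Ifitm1 the order ran from OSPa through sham, OS5K #1 and OS5K #2 to OS5K #3, and the step between OSPa and sham, of 92.6 RPKM, was larger than the larger SD of the pair. For Ifitm2 it ran from OS5K #2 through OS5K #3, OS5K #1 and OSPa to sham, and the step between OSPa and sham, of 51.0 RPKM, was larger than that SD. No neighbouring step did so for Ifitm3, ordered sham, OS5K #3, OS5K #2, OSPa and OS5K #1, or for Ifitm6, ordered OSPa, OS5K #1, sham, OS5K #2 and OS5K #3. For OSPa against sham the limma log2 fold change of Ifitm2 was 0.06 (95% interval -0.37 to 0.48). That of Ifitm1 was 0.38 (95% interval -0.20 to 0.96), and both intervals span 0.

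The tests asked whether the members changed between groups, on log2(RPKM + 1) with limma fitted over all 8039 genes and Benjamini-Hochberg adjustment at 0.05. No member was called in any of the 8 comparisons. For OS5K against OSPa 0 of 4 members were called, where 0.348% of all genes were. There, 634 genes, or 7.89%, had an unadjusted p under 0.05 by limma. For OSPa against sham and for OS5K against sham 0 members were called, as was 0% of all genes. For these, limma gave 480 genes (5.97%) and 838 genes (10.4%) at an unadjusted p under 0.05. Against OSPa, 0 members were called in OS5K #1 (0.348% of all genes), OS5K #2 (0%) and OS5K #3 (0.199%). Among the OS5K lines it was 0 members (0% of all genes), and among all 5 groups 0 members (0.0124%). limma-voom on the recovered reads also called no member.

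Ifitm1 had the largest difference among the members. Its log2 fold change for OS5K against OSPa was -0.61 (SE 0.21, 95% interval -1.09 to -0.14, unadjusted p = 0.0169, adjusted p = 0.405 by limma), and 2.82% of all genes had a larger change in either direction. By line it was -0.46 in OS5K #1, -0.69 in OS5K #2 and -0.69 in OS5K #3, all against the same OSPa libraries. Single libraries moved these values: OS5K #1 gave -0.10 without its replicate 1 and -0.81 without its replicate 2, and OS5K #2 gave -0.41 without its replicate 1 and -0.97 without its replicate 2. For OSPa against sham the value was 0.38 (adjusted p = 0.827 by limma) and for OS5K against sham -0.23 (adjusted p = 0.717 by limma).

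For Ifitm3 the larger differences were those against sham. The log2 fold change was -0.36 for OS5K against sham (SE 0.17, 95% interval -0.74 to 0.01, adjusted p = 0.494 by limma) and -0.33 for OSPa against sham (SE 0.20, adjusted p = 0.827 by limma). These share the sham libraries, and the size depended on which was used. Without sham replicate 2 the values were -0.13 for OS5K and -0.10 for OSPa, and without sham replicate 1 they were -0.59 for OS5K and -0.56 for OSPa. The OSPa value was also -0.19 without OSPa replicate 1. For OS5K against OSPa it was -0.03 (95% interval -0.40 to 0.34), and its sign turned with RPKM scaled to reads outside hemoglobin (0.022).

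Ifitm6 gave -0.30 for OS5K against OSPa (95% interval -0.73 to 0.14) and Ifitm2 gave 0.09 (95% interval -0.25 to 0.44). Against sham, Ifitm6 gave -0.12 and Ifitm2 0.15 in OS5K. None of these passed the test, and each of the intervals given spans 0.

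**Figure D2:**
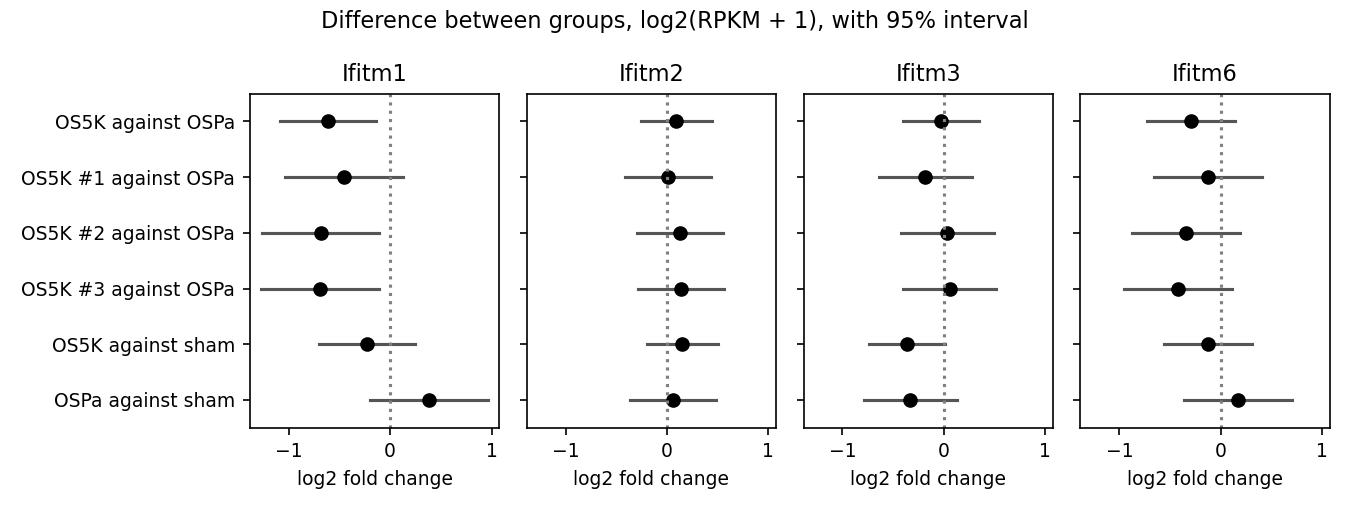
Log2 fold change of each member on the log2(RPKM + 1) scale for 6 comparisons; points are limma estimates and lines their 95% intervals, and the dotted line is 0. The Ifitm1 estimates against OSPa run between -0.69 and -0.46, and no member passed the adjusted threshold.

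Across the 10 libraries Ifitm1 and Ifitm6 had a Pearson r of 0.80, and the same replicate was higher for both in 4 of 5 groups. Ifitm1 and Ifitm3 had an r of 0.03, and Ifitm2 and Ifitm3 one of 0.23. Ifitm2 and Ifitm6 had an r of 0.46 over the libraries and of 0.96 for deviations from the group means, with the same replicate higher in 4 of 5 groups. For deviations from the group means r was 0.71 between Ifitm1 and Ifitm2, with the same replicate higher in 3 of 5 groups, and 0.72 between Ifitm1 and Ifitm6. Each r of deviations rests on 1 replicate difference per group. For Ifitm2 the widest difference was in OS5K #2, at 1124 and 1695 RPKM, so its values lean on that pair. These are descriptions over libraries that fall in 5 groups, so no p is given.

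Ifitm3 followed the interferon-stimulated genes. Against the mean log2 level of 40 type I interferon-stimulated genes its r was 0.95 (Spearman's rho 0.88), 0.87 without the 2 libraries farthest from the median and 0.89 without sham. The same replicate was higher for both in 5 of 5 groups. With the interferon receptor and signalling genes r was 0.93 and with interferon gamma-stimulated genes 0.85. For Ifitm1, Ifitm2 and Ifitm6 against the type I genes r was -0.11, 0.01 and -0.05; for Ifitm2 it was 0.53 without the 2 farthest libraries and 0.44 without sham.

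**Figure D3:**
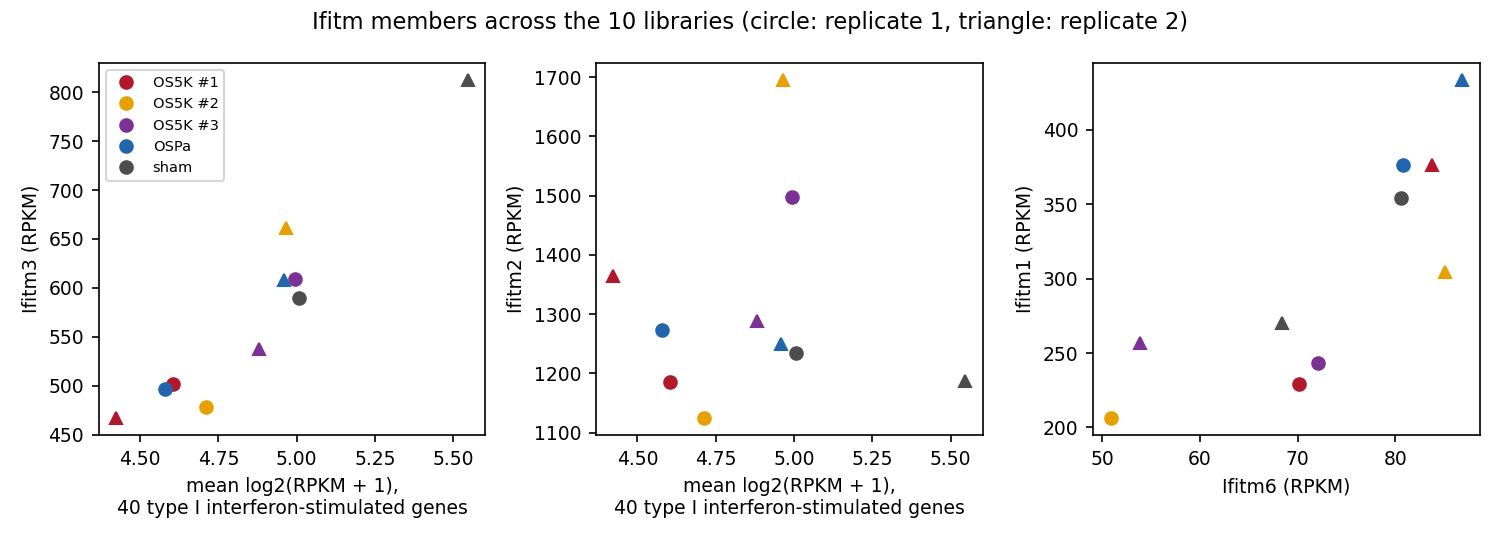
Left and middle: Ifitm3 and Ifitm2 (RPKM) against the mean log2(RPKM + 1) of 40 type I interferon-stimulated genes; right: Ifitm1 against Ifitm6 (RPKM); each point is 1 of 10 libraries, coloured by group. Ifitm3 follows the list (r 0.95), Ifitm2 has an r of 0.01 (0.53 without the 2 farthest libraries), and Ifitm1 follows Ifitm6 (r 0.80).

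The 5 genes most like each member were taken from 3863 named genes with a mean of at least 5 RPKM. For Ifitm3 they were Tapbp, which helps load peptides on MHC class I, Irf7, a transcription factor of the interferon response, H2-T22, a non-classical MHC class I gene, Usp18, a brake on interferon receptor signalling, and Trafd1, with r between 0.94 and 0.95. For Ifitm1 they were Steap4, a metalloreductase, Syt11, Ensa, Sema6b and Tlr1, a Toll-like receptor, with r between 0.91 and 0.93. For Ifitm6 they were Nfil3, a transcription factor, Lrg1, a secreted glycoprotein, Sema6b, the glycolytic enzyme Eno1, and Soat2, with r between 0.89 and 0.93. Those of Ifitm2 were Mbd2, which binds methylated DNA, Dlst, Chmp3, Zdhhc5, a palmitoyltransferase, and Ranbp9, with r between 0.81 and 0.90. These r values are the highest of 3863 over 10 libraries, so the selection itself makes them high. Without the 2 farthest libraries r was 0.76 for Ifitm2 with Mbd2, 0.93 for Ifitm1 with Steap4 and 0.91 for Ifitm3 with Irf7.

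Most interferon-stimulated genes had lower means in both tumour conditions than in sham, with no calls, and sham replicate 2 carried much of that difference. For OSPa against sham, 39 of 40 type I interferon-stimulated genes had a lower mean, with a median log2 fold change of -0.51 against -0.04 over all genes, and 0 were called. For OS5K against sham it was 36 of 40, a median of -0.55 against -0.02 over all genes, and 0 were called. Without sham replicate 2 the count was 28 of 40 for OSPa, with a median of -0.18 against -0.10 over all genes, and 31 of 40 for OS5K, with a median of -0.18 against -0.06. For OS5K against OSPa the median was -0.07, and 1 gene passed, Ube2l6, an enzyme of ISG15 conjugation, which rose with a log2 fold change of 1.57 (adjusted p = 0.047 by limma). Ube2l6 had 237 and 121 RPKM in OS5K #1, 110 and 107 in OS5K #2, 120 and 84.5 in OS5K #3, 32.1 and 51.5 in OSPa and 100.03 and 94.2 in sham. The erythroid markers given below were likewise highest in OS5K #1 replicate 1 and lowest in OSPa, and their part in the Ube2l6 call was not tested. Irf7 had -0.60 for OS5K and -0.63 for OSPa, both against sham, and Usp18 had -0.66 and -0.63, none of them called.

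The 13 tested interferon gamma-stimulated genes all had lower means in OS5K than in sham, with a median of -0.99, and in OSPa than in sham, with a median of -0.59; 0 were called. Their summed level was 283 to 375 RPKM in OS5K, 294 and 560 in OSPa and 374 and 1037 in sham, so the lower sham library lay below 1 OS5K and 1 OSPa library. Without sham replicate 2, 13 of 13 had a lower mean in OS5K with a median of -0.21, and 3 of 13 in OSPa with a median of 0.05. Of the 19 tested interferon receptor and signalling genes 0 were called. In OS5K 17 had a lower mean than in sham, with a median of -0.24 against -0.02 over all genes. Without sham replicate 2 it was 16 of 19, with a median of -0.19 against -0.06 over all genes. In OSPa 13 of 19 had a lower mean than in sham. Of 11 tested genes that act on or with IFITM proteins 0 were called in any comparison. For OS5K against sham 7 of these 11 had a higher mean and 4 a lower one. Among them the protease Zmpste24 had a log2 fold change of 0.07, the kinase Fyn 0.63, and the tetraspanins Cd81 and Cd9 0.30 and 0.33. Fyn was low, at 0.93 to 3.68 RPKM in OS5K and 1.42 and 0.35 in sham. The sham libraries also differed for Cd81, at 7.22 and 3.23 RPKM.

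Markers of other blood cells moved between the same groups. For OS5K against OSPa 4 of 11 erythroid genes and 3 of 13 tested monocyte genes were called higher. The 28 calls of that comparison rest on few libraries: 1 gene was called without OSPa replicate 1, and 60 without OS5K #1 replicate 2. The summed erythroid level was 45006 to 121860 RPKM in OS5K, 20844 to 27962 in OSPa and 52785 to 61258 in sham, with the monocyte sum at 212 to 294 in OS5K, 190 to 215 in OSPa and 218 to 262 in sham. Ifitm1 had an r of -0.72 with the erythroid list, and -0.44 without the 2 OSPa libraries. With RPKM scaled to reads outside hemoglobin the Ifitm1 value for OS5K against OSPa was -0.56. All 11 platelet genes had higher means than in sham, with 0 called. Their median log2 fold change was 1.14 in OS5K (-0.02 over all genes) and 0.47 in OSPa (-0.04). The platelet sum was 695 to 1919 RPKM in OS5K, 543 to 954 in OSPa and 276 to 873 in sham, so libraries overlapped. Ifitm3 had an r of -0.60 with the platelet list, and a part of platelets in its differences was not tested.

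Ifitm1 and Ifitm6 had an r of 0.82 and 0.83 with the mature neutrophil genes, and 0.65 and 0.62 without the 2 farthest libraries. For Ifitm2 and Ifitm3 it was 0.36 and 0.18. For deviations from the group means, 1 replicate difference per group, it was 0.72 for Ifitm1, 0.94 for Ifitm2, 0.70 for Ifitm3 and 0.88 for Ifitm6. The same replicate was higher for the member and the mature neutrophil genes in 3 of 5 groups for Ifitm1 and Ifitm2. For Ifitm3 and Ifitm6 this held in 4 of 5. Ifitm6 also had an r of 0.66 with the immature neutrophil genes and of 0.57 with the general neutrophil genes, against 0.27 and 0.13 for Ifitm1. The summed level of the 10 mature neutrophil genes was 6625 to 8181 RPKM in OS5K, 8352 to 9386 in OSPa and 7781 to 8006 in sham. By that sum both OSPa libraries lay above every other library. Its part in the Ifitm1 difference was not tested. In bulk samples, fewer cells of a type and less RNA per cell cannot be told apart. Neutrophil markers were abundant, but so was red cell RNA. All 10 neutrophil genes were tested and summed to 70687 to 86314 RPKM in OS5K, 74003 to 77213 in OSPa and 65851 to 67535 in sham. The 8 eosinophil genes summed to 13.9 to 25.9 RPKM in OS5K, 17.0 to 17.6 in OSPa and 17.5 to 23.1 in sham. In OS5K #1 replicate 1 the 11 erythroid genes summed to 121860 RPKM, above the 81190 of the neutrophil genes. In every other library the neutrophil sum was the higher one. No gene of the platelet (11 tested), B cell (10), T and NK cell (4), eosinophil (3), basophil (1), mature neutrophil (10) or immature neutrophil (8) lists was called in any comparison.

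**Figure D4:**
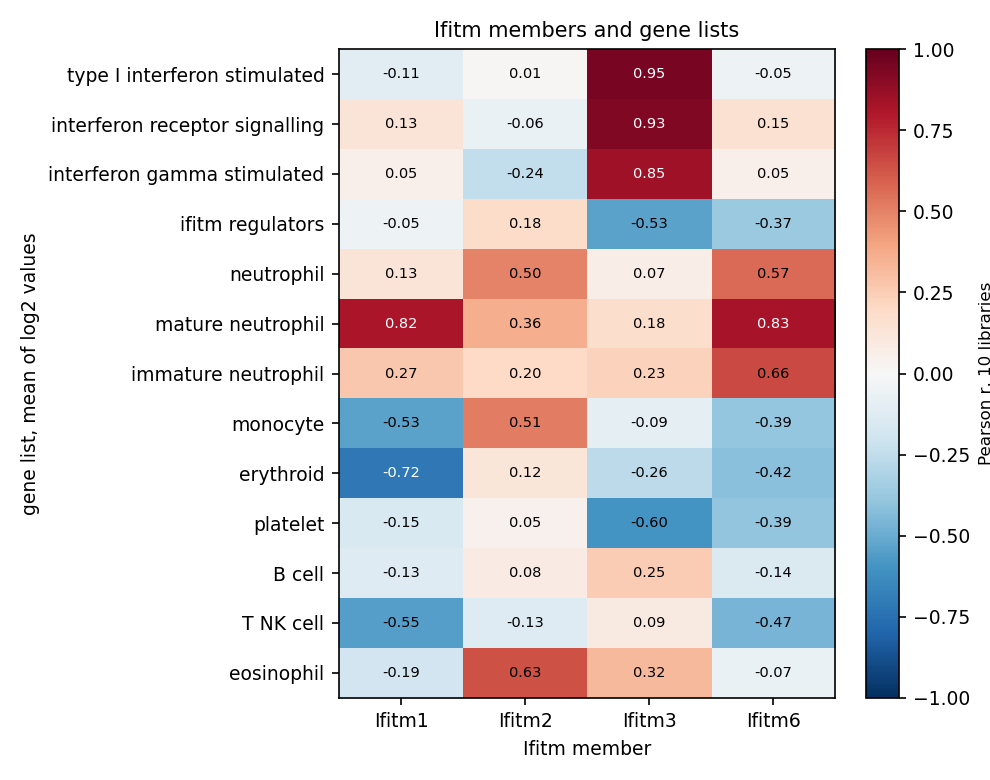
Pearson r over 10 libraries between the log2(RPKM + 1) of each member (columns) and the mean log2 level of 13 gene lists (rows); colour runs from -1 to 1. Ifitm3 stands out on the interferon lists, 0.95, 0.93 and 0.85, and Ifitm1 and Ifitm6 on the mature neutrophil list, 0.82 and 0.83. Ifitm6 also has 0.66 on the immature neutrophil list.

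The rest of the family was low. Ifitm5, a gene of bone mineralisation, had 1.22 to 3.42 RPKM, Ifitm10 had 0.102 to 0.391 and Ifitm7 0 to 0.0581 over the 10 libraries. The predicted gene Gm45717 overlaps Ifitm5 and Ifitm2 on the same strand, and 48.5% of the 50-base windows of Ifitm2 occur in another gene (22.8% without Gm45717), against 10.02% for Ifitm3, 5.02% for Ifitm1 and 0 for Ifitm6. The handling of reads with several matches is not given in the sources used here. The Ifitm2 level is uncertain for that reason. The longest identical run of bases was 69 between Ifitm2 and Ifitm3 and 64 between Ifitm1 and Ifitm3.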

How the data were processed

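RNA of 10 libraries was analysed. Per the labels' protocols, RNA was extracted with RNeasy kits and libraries with SMART-Seq v4 and Ion Xpress Plus kits. The authors deposited RPKM values for 54146 genes. Per the submitters' processing notes the genome was mm10. Aligner, counter and strand use are not given in the sources used. From the RPKM steps and GENCODE exon lengths, 88.5% of values came out as whole reads (tolerance 0.02 reads), giving totals of 13765576 to 15514537.

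The 8039 genes reaching 1 RPKM in 2 or more libraries were analysed as log2(RPKM + 1), so fold changes understate those of low genes. One limma fit (version 3.58.1, R 4.3.3, trend and robust) held 5 group means, with 5 residual degrees of freedom, and p-values were adjusted by Benjamini-Hochberg over all tested genes. OS5K is the mean of its 3 groups. Scripts were tested on simulated data. Alternatives were a replicate block, pseudocounts of 0.1 and 5, no filter, a 5 RPKM filter, quantile normalization, median centring, limma without trend and robust, only the groups compared, limma-voom on recovered reads, scaling outside hemoglobin, and leaving out each line or library.

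The members and gene lists were chosen with earlier results of these data known. Named beside the members were the 5 genes most correlated with each (mean of at least 5 RPKM, predicted genes left out) and up to 4 genes of a list with the smallest p among all 5 groups. Leaving each sham library out of the interferon list counts was added after the data were seen. A second motif search is not reported here.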

Additional observations from a re-analysis of the deposited data

How the results depend on the processing

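No member was called in any of 173 alternative fits, and 15 of 692 single-member values turned sign, none of them past the threshold. The 692 include F statistics, which have no sign to turn. They also include alternatives that leave the fold change itself as it was, so the share that turned sign understates how much it could move. For Ifitm3 in OS5K against OSPa the value became 0.022 outside hemoglobin and 0.046 with OS5K #1 left out of the mean; under median centring it became -0.049 in OS5K #2 and -0.042 in OS5K #3. Leaving out 1 library gave -0.18 to 0.11 for Ifitm3 and -0.0059 to 0.19 for Ifitm2 in OS5K against OSPa, -0.090 to 0.11 for Ifitm2 in OS5K #1, -0.17 to 0.43 for Ifitm2, -0.20 to 0.27 for Ifitm3 and -0.71 to 0.023 for Ifitm6 in OS5K #2, and -0.087 to 0.20 for Ifitm3 in OS5K #3, each against OSPa. Ifitm3 against sham ran between -0.59 and -0.13 in OS5K and between -0.56 and -0.10 in OSPa. Ifitm1 in OS5K against OSPa stayed between -0.73 and -0.49, with adjusted p between 0.16 and 0.90 over its alternatives.

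Counts over all genes moved more. With no filter they were 15 for OS5K against OSPa (28 in the text), 9 for OSPa against sham (0), 2 for OS5K against sham (0), 13 for OS5K #1 (28) and 14 for OS5K #2 (0) against OSPa, 7 among the lines (0) and 14 among all 5 groups (1). Leaving OS5K #1 out of the mean gave 13. Only the groups compared gave 2 for OS5K #2 and 55 for OS5K #3 (16), limma-voom gave 1 and 4, and the 5 RPKM filter 7 for OS5K #3. Among all 5 groups limma-voom gave 4, and scaling outside hemoglobin and limma without trend and robust gave 0. Leaving out 1 library gave 1 to 60 for OS5K against OSPa, 0 to 3 for OSPa against sham, 0 to 30 for OS5K against sham, 0 to 41 for OS5K #1, 0 to 2 for OS5K #2, 0 to 18 for OS5K #3 and 0 to 13 among all 5 groups. The cause was not tested.

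Between groups, the deviations of same-numbered replicates from their group means correlated between -0.38 and 0.45, with no common sign. Whether some libraries shared a batch was not tested. The replicate block gave 21 for OS5K against OSPa and 0 among all 5 groups, and called no member.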

Other observations

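The balance of the members differed between libraries. The ratio of Ifitm1 to Ifitm2 RPKM was 0.162 to 0.276 in the 6 OS5K libraries, 0.295 and 0.347 in OSPa and 0.287 and 0.228 in sham, so OSPa lay above every OS5K library and sham overlapped them. Ifitm6 to Ifitm2 was also higher in both OSPa libraries (0.063 and 0.069) than in the OS5K libraries (0.042 to 0.061). Ifitm2, whose level is uncertain, is the denominator of both. The other ratios looked at did not separate OSPa from OS5K. Ifitm1 to Ifitm3 was 0.806 in OS5K #1 replicate 2, against 0.757 and 0.713 in OSPa. Ifitm1 to Ifitm6 was 4.77 in OS5K #3 replicate 2, against 4.66 in OSPa replicate 1. The Ifitm1 to Ifitm2 ratio was chosen after its values were seen, and no ratio was tested. Within groups, 7.88% of 4072 genes with a mean of at least 5 RPKM varied more between replicates than Ifitm1, against 28.0% for Ifitm2.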
